A study of Mus musculus with 3 samples.

Results

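This account covers 10 genes of the interleukin-1 family in mouse pancreatic tumours, followed across the cell classes of the tumours. The genes were listed by symbol: the ligands Il1a, Il1b, Il18 and Il33, the antagonist Il1rn, and the receptor chains Il1r1, Il1r2, Il1rap, Il1rl1 and Il18r1. They are 10 of the 28692 genes in the deposited matrix, of which 21005 had counts. The single-cell RNA-seq series holds 3 tumours of the KPf/fC strain, a mouse model of pancreatic cancer whose alleles include a floxed Trp53 gene that a Cre recombinase active in the pancreas removes. All 3 tumours carry the same alleles, the labels name no treatment and no age, and there is no normal pancreas. The cells had been sorted before capture to lack CD45, CD31 and PDGFRa, so leukocytes, endothelial cells and PDGFRa-positive fibroblasts were meant to be depleted in every sample. The fibroblast-class and endothelial-class cells described here are therefore the ones that passed that sort.

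Interleukin-1 alpha and beta bind the receptor chain encoded by Il1r1, which recruits the shared accessory chain Il1rap and signals through Myd88 and NF-kB. Il1rn encodes an antagonist that occupies the same receptor without signalling, and Il1r2 encodes a decoy receptor that lacks a signalling domain. Interleukin-33 is sensed by Il1rl1, also called ST2, again with Il1rap, whereas interleukin-18 is sensed by Il18r1 with its own partner Il18rap and is neutralised by Il18bp. In pancreatic cancer the family is known for the route by which interleukin-1 from tumour cells induces cytokines such as Il6, Lif and Cxcl1 in neighbouring fibroblasts.

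Il1a and Il1rn, the ligand and antagonist with the clearest epithelial pattern here, lie on chromosome 2, as does Il1b, which lacked that pattern. The 250 bases before an annotated start are shown for Il1a, Il1rn and Il33, the last a ligand higher in fibroblast-class than in epithelial cells. They are given on the strand of each gene, from RefSeq on build GRCm38.p6. The windows are chr2:129309973-129310222 on the minus strand for Il1a, chr2:24336610-24336859 on the plus strand for Il1rn and chr19:29945540-29945789 on the plus strand for Il33. Capitals mark TATAAA, the TATA-box letters, and TGANTCA, the letters bound by AP-1, each searched on both strands. These motifs have no letters in common in the windows shown.
Il1a: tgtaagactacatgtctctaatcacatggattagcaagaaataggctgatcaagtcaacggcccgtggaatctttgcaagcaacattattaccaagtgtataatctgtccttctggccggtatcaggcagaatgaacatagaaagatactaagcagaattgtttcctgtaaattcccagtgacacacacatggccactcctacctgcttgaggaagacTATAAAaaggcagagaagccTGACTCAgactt
Il1rn: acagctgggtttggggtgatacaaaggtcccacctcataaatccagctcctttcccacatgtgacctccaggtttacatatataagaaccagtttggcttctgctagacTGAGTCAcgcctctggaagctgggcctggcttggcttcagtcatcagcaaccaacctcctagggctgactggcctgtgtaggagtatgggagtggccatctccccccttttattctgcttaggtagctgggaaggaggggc
Il33: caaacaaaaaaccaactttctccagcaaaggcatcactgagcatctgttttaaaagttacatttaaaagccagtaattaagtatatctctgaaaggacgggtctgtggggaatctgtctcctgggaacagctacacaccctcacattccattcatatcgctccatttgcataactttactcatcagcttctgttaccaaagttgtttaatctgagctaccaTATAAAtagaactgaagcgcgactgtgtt
TGANTCA was found in 2 of 17 member windows, that of Il1a and the first of 3 for Il1rn, whose other windows lack it, against 6.75% of all 32851 promoter windows. Over so few windows this count does not set the members apart from that share. TATAAA was found in 5 of 17 member windows, against 12.4% of all windows. Counted by gene, with up to 3 windows each, it was found for 4 of the 5 ligand and antagonist genes and for 0 of the 5 receptor genes. No share by gene over all genes was computed. Over so few genes these counts do not set ligands apart from receptors, nor the members from all windows. In Il1a it began 32 bases before the start, in Il1b 31 and in this window of Il33 29. In the other Il33 window it began 203 bases before the start, and in Il18 175 bases before it, on the opposite strand. On chromosome 1, RefSeq places Il1r2, Il1r1, Il1rl2, Il1rl1, Il18r1 and Il18rap next to each other in that order, so 4 of the 5 receptor members are close neighbours. A motif match is a description of the letters and was not tested as a binding site.

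Cells were assigned to a class when both of its markers had at least 1 unique molecular identifier (UMI), and cells that met more than 1 class were dropped. The markers were Epcam and Cdh1 for epithelial cells, Dcn and Col3a1 for fibroblasts, Rgs5 and Higd1b for mural cells, Upk3b and Lrrn4 for mesothelial cells, and Pecam1 and Cdh5 for endothelial cells. Of 18990 cells that passed the filters, 13104 fell into 1 class: 6364 epithelial, 5897 fibroblast, 574 mural, 258 endothelial and 11 mesothelial. The mesothelial class was this small because 348 further cells with both mesothelial markers also had both fibroblast markers. A class that gives mesothelial markers precedence was added after the data were seen; it holds 359 cells, 226, 72 and 61 in tumours 1, 2 and 3. Endothelial sums used tumours 1 and 3 in tests, with 186 and 57 cells, because tumour 2 had only 15. Total UMIs were between 53162622 and 67262634 per tumour, and median UMIs per cell in the epithelial and fibroblast classes lay between 4953 and 10613. The fibroblast class of tumour 2 stood apart: its Dcn level was 1222 counts per 1000000 UMIs of the sum (CPM), against 4342 and 5772 in tumours 1 and 3, and its Hmga2 level was 506 CPM, against 61.0 and 14.11. Summed over 14 leukocyte markers, levels were at most 127 CPM in the epithelial class and 52.9 CPM in the fibroblast class, and without Cd14 at most 15.3 and 25.3 CPM. Mural cells had 8.20, 7.69 and 63.4 CPM in tumours 1, 2 and 3, the last 61.3 CPM without Cd14. In the mesothelial class with precedence these levels were at most 158 CPM, and at most 23.5 CPM without Cd14. The labels do not say whether the tumours came from separate animals, so p-values refer to these 3 samples only. With the tumour as a block, they concern differences between sums within a tumour. The spread behind them was estimated in part over all genes, and almost wholly so in the Il1a comparison of epithelial cells below. A small p therefore does not show that a gene's own values were alike in the 3 tumours.

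**Figure D1:**
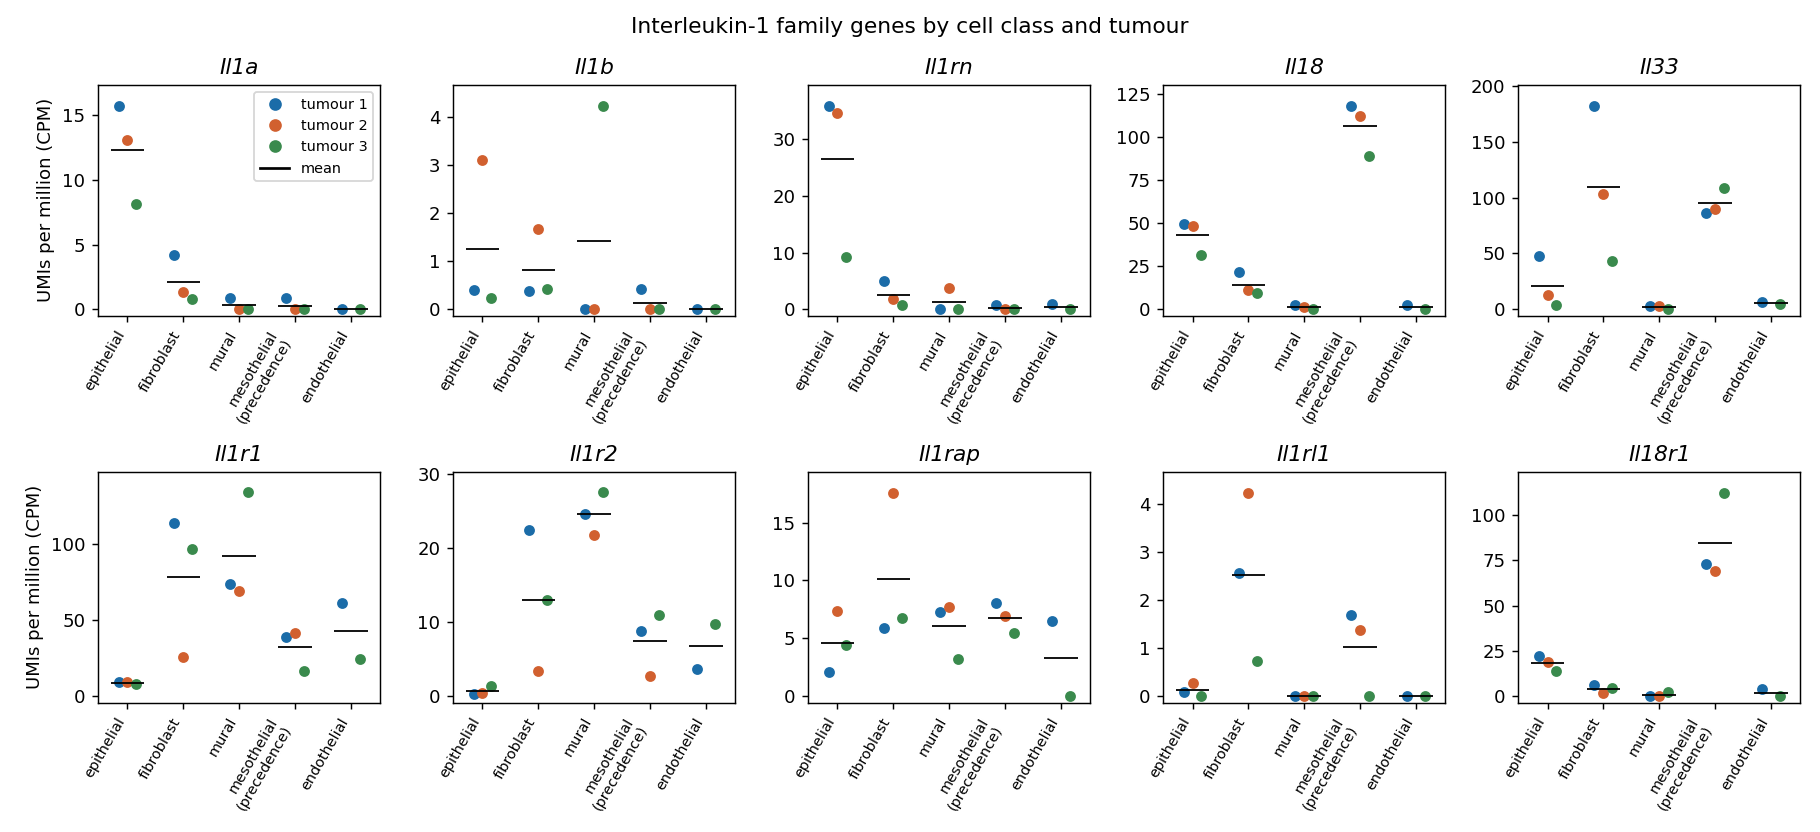
Level of each of the 10 genes, in CPM on a linear axis that differs between panels, for each tumour (coloured points) and cell class, with the mean as a line; the endothelial class shows tumours 1 and 3. Il1a and Il1rn were highest in the epithelial class in every tumour, Il18 and Il18r1 in the mesothelial class with precedence, and Il33 in the fibroblast or the mesothelial class.

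Il1a, which encodes interleukin-1 alpha, was chiefly an epithelial transcript. Its level in the epithelial class was 15.7, 13.03 and 8.10 CPM in tumours 1, 2 and 3, and in the fibroblast class 4.23, 1.34 and 0.825 CPM. The lowest epithelial value lay above the highest fibroblast value. In tumour 1, fibroblast-class cells with an Hmga2 UMI held 55 Il1a UMIs, against 11 in the other cells of that class. Mural cells gave 1 Il1a UMI in all, and endothelial and mesothelial cells of the rule gave 0. The epithelial class held 59.5% of the 1280 Il1a UMIs. The log2 difference between epithelial and fibroblast sums was 2.71 ± 0.35 (SE, 3 tumours, adjusted p = 4.69e-05, edgeR quasi-likelihood test adjusted over all genes), and the pooled level was 33.9 times that of mural cells, with a counting interval of 6.07 to 1342. Against the endothelial sums of tumours 1 and 3, taking 3 counts as the floor, the epithelial level pooled over all 3 tumours was at least 5.13-fold higher.

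Il1b, which encodes interleukin-1 beta and is mainly a product of myeloid cells, had few counts in these sorted cells. In the epithelial class its level was 0.395, 3.11 and 0.236 CPM, in the fibroblast class 0.384, 1.66 and 0.412 CPM, and these ranges overlapped. Of 197 Il1b UMIs in all kept cells, 53.3% came from 17 cells that also carried a UMI of the leukocyte genes Ptprc, Tyrobp or Fcer1g. The difference between epithelial and fibroblast sums was 0.23 ± 0.78 on the log2 scale and did not pass the test (adjusted p = 0.854, edgeR).

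Il1rn, the antagonist, followed the epithelial pattern of Il1a. Its epithelial level was 35.9, 34.5 and 9.21 CPM, against 4.99, 1.89 and 0.742 CPM in the fibroblast class. Tumour 3 was the lowest in both classes, and every epithelial value lay above every fibroblast value. The log2 difference was 3.46 ± 0.38 (SE, 3 tumours, adjusted p = 6.29e-06, edgeR). With each cell thinned to 3000 UMIs, 8.91%, 8.57% and 2.81% of epithelial cells had an Il1rn UMI, against 0%, 0.781% and 0% of mural cells, a class in which the gene was near 0. Median depths before thinning were 8647 UMIs in the epithelial and 4332.5 in the mural class.

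Il18, the ligand that inflammasome caspases cut into its active form, was present in epithelial cells and higher still in cells with mesothelial markers. Its epithelial level was 49.7, 48.5 and 31.7 CPM and its fibroblast level 21.5, 10.9 and 9.65 CPM. In the mesothelial class with precedence it was 118, 112 and 88.9 CPM, above every epithelial and fibroblast value. Epithelial exceeded fibroblast sums by 1.66 ± 0.24 on the log2 scale (SE, 3 tumours, adjusted p = 7.62e-05, edgeR), and mesothelial exceeded epithelial sums by the same measure, with a log2 difference of epithelial minus mesothelial of -1.42 ± 0.22 (adjusted p = 0.000171). Mural cells held 4 Il18 UMIs in all. Within the fibroblast class, 846, 368 and 652 cells had a mesothelial transcript, meaning a UMI of Upk3b, Lrrn4, Wt1 or Nkain4. Il18 was 31.7, 20.2 and 17.9 CPM in these cells, and 11.7, 9.27 and 5.39 CPM in the others. Other members also differed in this split. Il33 was 181, 282 and 65.4 CPM against 184, 70.5 and 31.2 CPM. Il1r1 was 137, 74.1 and 76.8 CPM against 91.8, 16.9 and 107 CPM. The source of the mesothelial transcripts was not tested.

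Il33, an alarmin stored in the nucleus, had the opposite pattern to Il1a and varied widely among tumours. Fibroblast-class levels were 182, 103 and 42.9 CPM, epithelial levels 47.4, 12.7 and 3.46 CPM, and mesothelial levels under precedence 85.9, 89.7 and 109 CPM. In both the epithelial and the fibroblast class tumour 1 was highest and tumour 3 lowest, whereas the mesothelial values lay close together; epithelial tumour 1 lay above fibroblast tumour 3, but within each tumour the fibroblast class was higher. The epithelial sums were lower by a log2 difference of -2.85 ± 0.31 (SE, 3 tumours, adjusted p = 6.25e-06, edgeR). Mural cells carried 5 Il33 UMIs in all, and the fibroblast sums exceeded them by 6.42 ± 0.56 on the log2 scale (adjusted p = 5.07e-06, edgeR). Fibroblast and mesothelial sums differed by -0.14 ± 0.50 on the log2 scale, which did not pass the test (adjusted p = 0.905, edgeR).

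Il1r1, the signalling receptor for interleukin-1 alpha and beta, was a stromal transcript. Its fibroblast level was 114, 25.6 and 96.6 CPM, its mural level 73.8, 69.2 and 134 CPM, and its epithelial level 9.43, 9.39 and 7.67 CPM. Every fibroblast and mural value lay above every epithelial value, and tumour 2 was the lowest of the fibroblast values. Endothelial cells had 61.4 and 24.3 CPM in tumours 1 and 3. Epithelial sums were lower than fibroblast sums by a log2 difference of -2.98 ± 0.40 (SE, 3 tumours, adjusted p = 4.32e-05, edgeR) and lower than mural sums by -3.24 ± 0.42 (adjusted p = 4.29e-05). Between fibroblast and mural sums the difference was -0.25 ± 0.39 and did not pass the test (adjusted p = 0.732, edgeR). After thinning, 28.2%, 9.16% and 23.2% of fibroblast-class cells had an Il1r1 UMI, against 3.20%, 2.70% and 2.22% of epithelial cells, with median depths before thinning of 6723 and 8647 UMIs.

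Il1r2, the decoy, was highest in mural cells. It was 24.6, 21.8 and 27.5 CPM there, 22.4, 3.37 and 13.03 CPM in the fibroblast class, and between 0.263 and 1.34 CPM in the epithelial class. The mural and fibroblast ranges overlapped, and both lay above the epithelial range. The epithelial sums were lower than fibroblast sums by -4.19 ± 0.54 on the log2 scale (SE, 3 tumours, adjusted p = 2.96e-05, edgeR) and lower than mural sums by -5.19 ± 0.60 (adjusted p = 1.41e-05). The fibroblast minus mural difference of -0.999 ± 0.495 did not pass (adjusted p = 0.214, edgeR), although the fibroblast level was lower in 3 of 3 tumours.

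Il1rap, the accessory chain used by the Il1r1 and Il1rl1 receptors, was low in every class and set apart by tumour 2. The fibroblast class had 5.89, 17.6 and 6.76 CPM, the epithelial class 2.06, 7.34 and 4.45 CPM, and the mural class 7.29, 7.69 and 3.17 CPM. The highest count in the series was outside the classes: 545 UMIs, or 22.2 CPM, in the 2194 cells of tumour 2 that met no class. Epithelial sums were lower than fibroblast sums by -1.14 ± 0.34 on the log2 scale (SE, 3 tumours, adjusted p = 0.0175, edgeR), in 3 of 3 tumours. This call was lost without tumour 1 (adjusted p = 0.0607), without tumour 2 (0.105), without the tumour as a block (0.182) and without fibroblast-class cells that carried mesothelial transcripts (0.0667).

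Il1rl1, the interleukin-33 receptor chain, gave 215 UMIs in all kept cells. Its fibroblast level was 2.56, 4.25 and 0.742 CPM; epithelial cells gave 6 UMIs in all, and mural and endothelial cells gave 0. The pooled fibroblast level was at least 2.69-fold above the mural floor of 3 counts. The epithelial minus fibroblast difference was -4.50 ± 0.65 on the log2 scale (SE, 3 tumours, adjusted p = 0.000267, edgeR). The fibroblast against mural call was at the threshold (adjusted p = 0.0447, edgeR) and was lost under 7 alternatives, among them leaving out tumour 1 (0.232) or tumour 3 (0.110).

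**Figure D2:**
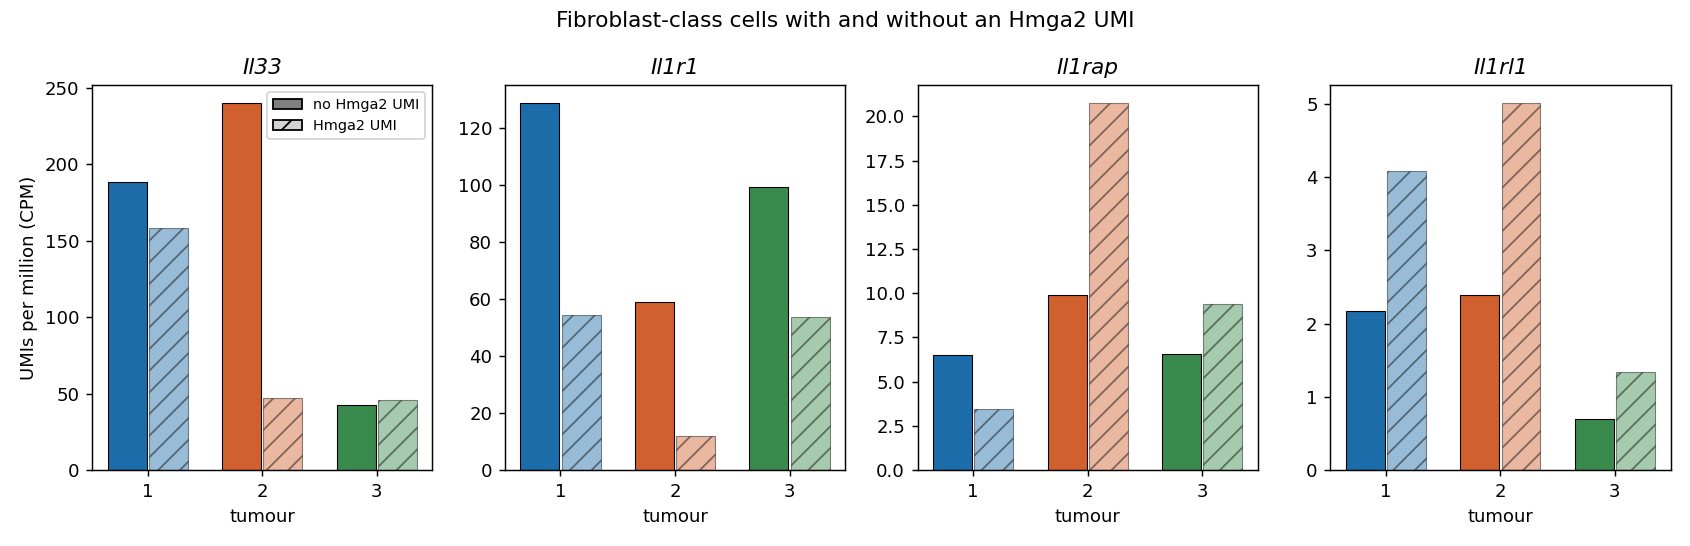
Level of Il33, Il1r1, Il1rap and Il1rl1 in fibroblast-class cells of each tumour, without (plain bars) and with (hatched bars) a UMI of Hmga2, on axes that start at 0; bars are pooled levels with no error. In tumour 2, Il33 and Il1r1 were lower and Il1rap higher in the cells with an Hmga2 UMI.

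Hmga2, a chromatin protein typical of embryonic and mesenchymal tumour cells, had a UMI in 1025 of the 1889 fibroblast-class cells of tumour 2, and the levels of several of the 10 genes differed between those cells and the rest. There, Il33 was 47.3 CPM in cells with an Hmga2 UMI and 240 CPM in cells without, and Il1r1 was 11.96 and 59.2 CPM. Il1rap ran the other way, with 20.7 against 9.89 CPM, and Il1rl1 was 5.005 against 2.39 CPM. Il1r2 was 1.95 against 6.86 CPM and Il18r1 1.10 against 3.99 CPM, lower with Hmga2 on 30 and 17 UMIs. In the cells of tumour 2 that met no class, Il1rap was 26.0 CPM with and 4.25 CPM without an Hmga2 UMI. In tumours 1 and 3, where 209 and 83 fibroblast-class cells had an Hmga2 UMI, Il1r1 was again lower with it, at 54.3 against 129 CPM and 53.8 against 99.4 CPM, while Il1rap was lower in tumour 1 and higher in tumour 3. The Il33 difference was small there, at 159 against 188 CPM in tumour 1 and 45.7 against 42.7 CPM in tumour 3. Il1a was higher with an Hmga2 UMI in each tumour. It was 17.3 against 0.885 CPM in tumour 1, above the epithelial 15.7 CPM. In tumours 2 and 3 it was 1.69 against 0.479 CPM and 2.69 against 0.703 CPM, on 26 and 2 UMIs with Hmga2. Il1rn was 17.3 against 1.85 CPM in tumour 1 and 6.72 against 0.352 CPM in tumour 3, there on 5 UMIs. In tumour 2 Il1rn was lower with Hmga2, at 1.43 against 3.03 CPM. These splits were made after the tumour 2 class was seen to stand apart and carry no test. The cells were also not thinned to a common depth for this split, and the part of depth in it was not tested.

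Il18r1, the binding chain of the interleukin-18 receptor, was found in the same classes as its ligand. Its epithelial level was 22.1, 19.1 and 14.04 CPM, its fibroblast level 5.89, 1.94 and 4.54 CPM, and its level in the mesothelial class with precedence 72.9, 69.0 and 112 CPM. The 3 ranges did not overlap. The 11 cells of the strict mesothelial rule gave 299 and 278 CPM in tumours 1 and 3, from 19 and 10 UMIs. Epithelial exceeded fibroblast sums by 2.22 ± 0.37 on the log2 scale (SE, 3 tumours, adjusted p = 0.000298, edgeR). Fibroblast sums were below mesothelial sums by -4.47 ± 0.38 (adjusted p = 5.51e-06, edgeR), and epithelial sums by -2.28 ± 0.34 (adjusted p = 0.000122). Within the fibroblast class it was 9.47, 9.03 and 7.48 CPM in cells with a mesothelial transcript and 2.50, 0.655 and 3.01 CPM in the others. Thinned to 3000 UMIs, 21.2%, 13.9% and 16.7% of mesothelial cells under precedence had an Il18r1 UMI, against 0%, 0% and 0.676% of mural cells, with median depths before thinning of 9197 and 4332.5 UMIs.

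The partner chain and the soluble inhibitor of interleukin-18 were divided between classes. Il18rap, the signalling partner, was 9.47, 8.34 and 3.54 CPM in epithelial cells and 3.84, 1.89 and 1.73 CPM in the fibroblast class, a log2 difference of 1.47 ± 0.34 (adjusted p = 0.00489, edgeR) that was lost without tumour 1 (0.0654). In mesothelial cells under precedence it gave 12 UMIs, all in tumour 1. Il18bp, the inhibitor, was 50.6, 31.8 and 32.7 CPM in the mesothelial class and 8.13, 1.57 and 3.63 CPM in the fibroblast class, a fibroblast minus mesothelial difference of -3.35 ± 0.35 (adjusted p = 2.45e-05, edgeR). In cells thinned to 3000 UMIs, Il18r1 and Il18rap were seen together in 4, 5 and 3 epithelial cells among 121, 84 and 129 with Il18r1. Il1r1 and Il1rap were seen together in 13, 5 and 6 fibroblast-class cells among 515, 173 and 429 with Il1r1. Counts this sparse describe detection, not whether a cell has the complete receptor.

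**Figure D3:**
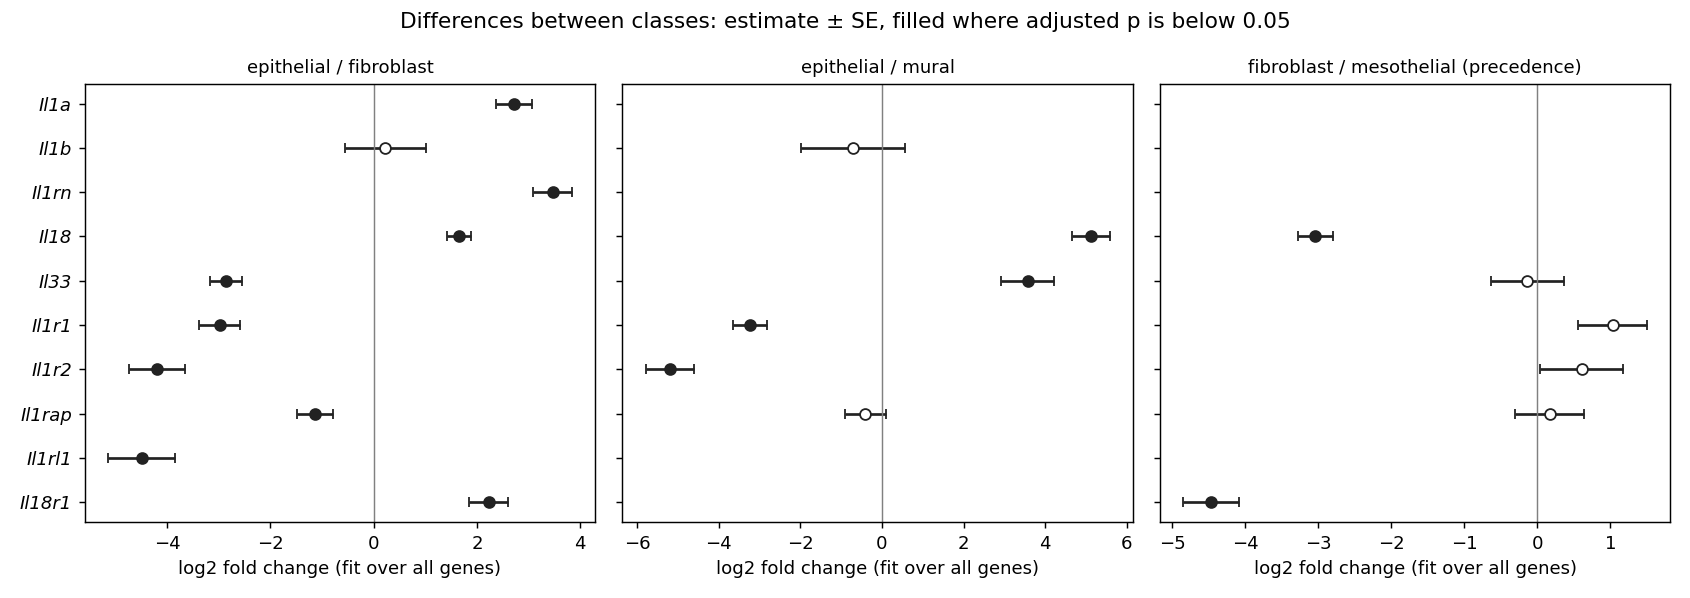
Log2 differences between class sums for the 10 genes (points, bars ± SE over the fit of 3 tumours), filled where the adjusted p was below 0.05; genes with 3 UMIs or fewer in either class, or not tested, are left out. In the epithelial against fibroblast panel 4 genes lie to the right and 5 to the left among the filled points.

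Read together, 9 of the 10 genes differed between epithelial and fibroblast sums, 4 higher in epithelial cells (Il1a, Il1rn, Il18, Il18r1) and 5 lower (Il33, Il1r1, Il1r2, Il1rap, Il1rl1), in a comparison where 39.8% of 14822 tested genes passed. The median log2 difference was -0.46 over the 10 genes and -0.02 over all genes. Against mural sums 7 of 10 passed (34.9% of all genes): Il1a, Il1rn, Il18, Il33 and Il18r1 were higher in epithelial cells, and Il1r1 and Il1r2 lower. Against endothelial sums 6 of 10 passed (22.9%), and of these Il33 was higher in only 1 of the 2 tumours and turned to -0.19 without tumour 1. The epithelial and fibroblast comparisons with endothelial sums rest largely on tumour 1, without which 1 of the 10 genes passed against epithelial sums and 0 against fibroblast sums. The endothelial arm then has 1 sum, which is assumed to vary like the other classes. Fibroblast and mural sums differed for 3 genes, Il18, Il33 and Il1rl1 (15.3%), and fibroblast and endothelial sums for Il18 and Il33 (17.3%). Between mural and endothelial sums 0 of 10 genes passed (12.5%); 2 had an unadjusted p under 0.05, Il1r1 and Il1r2, and DESeq2 called 1. Under precedence, 8 of the 10 genes passed the filter on low counts, and 7 differed between epithelial and mesothelial sums (39.4%), 2 between fibroblast and mesothelial sums (16.7%), Il18 and Il18r1. Mural and mesothelial sums differed for 3 (26.7%) and mesothelial and endothelial sums for 3 (25.6%), in both cases Il18, Il33 and Il18r1 with the mesothelial sums higher.

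The other genes of the pathway list, 66 in number and 57 of them tested, divided between epithelial and stromal cells. Between epithelial and fibroblast sums 33 of the 57 passed, where 39.8% of all tested genes did, 15 of them higher and 18 lower in epithelial cells. Of the 20 response genes 15 passed, 11 lower and 4 higher in epithelial cells, with a median log2 difference of -0.97. Il6 was 1.71, 0.662 and 1.49 CPM in epithelial cells, 137, 21.1 and 144 CPM in the fibroblast class and 215, 48.7 and 317 CPM in mural cells, so the mural value was the highest of these 3 classes in each tumour. Saa3, an acute-phase protein, was 2754, 651 and 1001 CPM in the fibroblast class, 44.3, 14.3 and 8.06 CPM in epithelial cells, and 12673, 7801 and 5157 CPM in mesothelial cells under precedence. Cxcl1, Ccl2, Ccl7, Csf1, Ptgs2, Mmp3, Hmox1, Sod2 and Cxcl2 were also lower in epithelial than in fibroblast sums, Cxcl2 in 2 of 3 tumours. The Cxcl2 difference moved from -1.09 to -0.14 without fibroblast-class cells that carried mesothelial transcripts (adjusted p = 0.845, edgeR).

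The 4 response genes that were higher in epithelial cells were Csf2, Cxcl5, Ccl20 and Lcn2. Csf2, the growth factor of granulocytes and macrophages, was 23.4, 41.1 and 8.58 CPM in epithelial cells and 11.5, 2.08 and 0.495 CPM in the fibroblast class, and 0 UMIs were found in mural cells. The epithelial and fibroblast ranges overlapped, but within each tumour the epithelial value was higher. Lcn2, a siderophore-binding protein, was 586, 394 and 2394 CPM in epithelial cells and 90.2, 36.8 and 178 CPM in the fibroblast class. Among genes that process the ligands, Casp1, which cleaves interleukin-1 beta and interleukin-18, was lower in epithelial sums (-4.49 ± 0.40, adjusted p = 1.14e-06, edgeR), as was Casp4. Nlrc4, Aim2 and the pore-forming Gsdmd were higher, with Gsdmd at 61.6, 40.7 and 12.7 CPM in epithelial and 39.9, 17.5 and 8.99 CPM in fibroblast-class cells, a call lost without tumour 1 (0.108) or tumour 2 (0.110). Of 23 genes of the signalling core 7 passed, a smaller share than the 39.8% of all tested genes. Of these 5 were higher and 2 lower in epithelial sums. Irak3, an inhibitor of the pathway, was lower (-1.79 ± 0.32, adjusted p = 0.000541, edgeR). Of the other receptor chains, Sigirr and Il18rap were higher, and Il1rl2 and Il1rapl1 lower, in epithelial sums.

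Epithelial cells with and without an Il1a UMI were compared after thinning each cell to 3000 UMIs, with the tumour as a block. There were 65, 50 and 64 cells with Il1a in tumours 1, 2 and 3, and their median depths before thinning were 10062, 9086.5 and 8085 UMIs, against 10619.5, 8958.5 and 7879 UMIs in cells without. Of 10054 genes tested 430 differed (4.28%), 222 higher and 208 lower in the cells with Il1a. DESeq2 called 154 genes. The spread behind the edgeR p-values came almost wholly from all genes here, so they say little about a gene's own spread among tumours. In the list of response genes 5 of 16 tested were higher and 3 lower. Csf2 was 66.7, 173 and 88.5 CPM in cells with Il1a and 22.8, 30.3 and 4.97 CPM in cells without (log2 difference 2.53 ± 0.30, adjusted p = 2.83e-14, edgeR). Cxcl5, a neutrophil chemokine, was 210, 333 and 245 CPM against 69.4, 120 and 48.3 CPM (1.72 ± 0.17, adjusted p = 6.95e-20). For both genes every value in cells with Il1a lay above every value in cells without, and each was seen in 8 to 13 of the cells with Il1a per tumour.

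**Figure D4:**
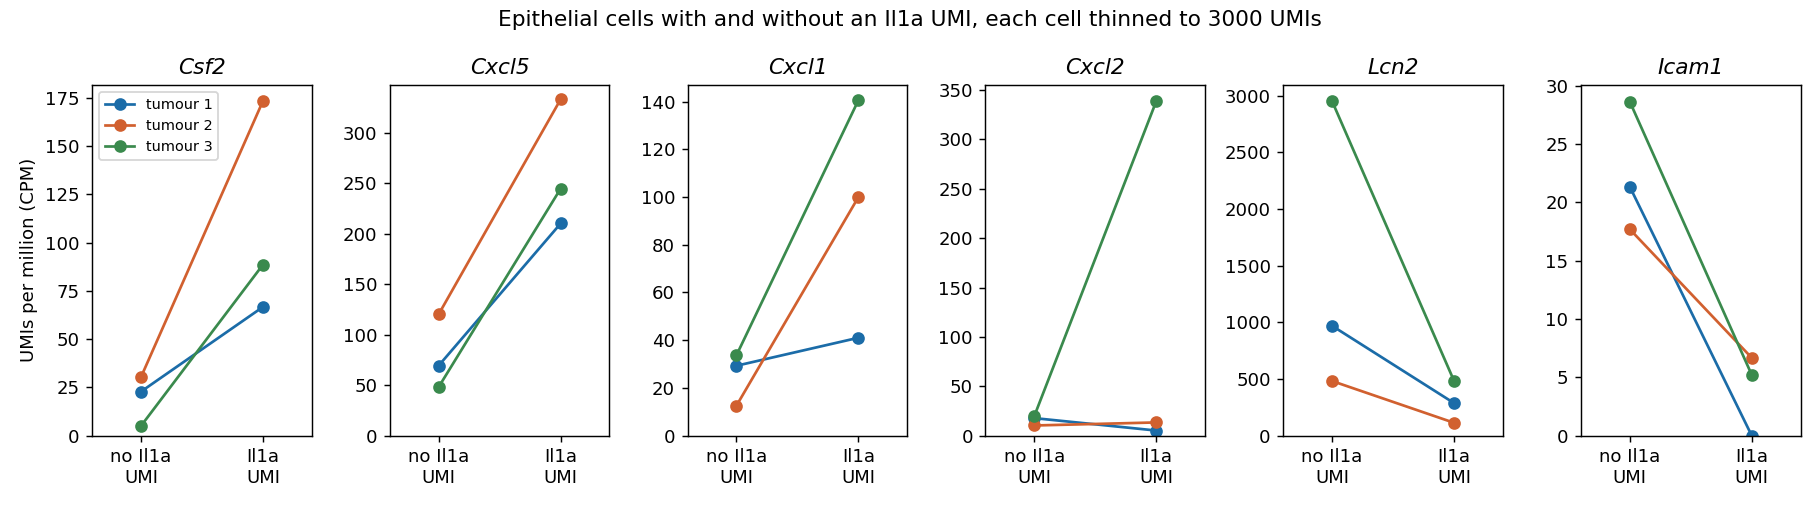
Levels of 6 response genes in epithelial cells without and with an Il1a UMI, each cell thinned to 3000 UMIs, 1 line per tumour, on linear axes that start at 0. Csf2, Cxcl5 and Cxcl1 were higher and Lcn2 and Icam1 lower in cells with Il1a in each tumour, whereas the Cxcl2 difference came from tumour 3.

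Cxcl1 was also higher in cells with Il1a, at 41.0, 100 and 141 CPM against 29.3, 12.6 and 33.7 CPM (1.77 ± 0.29, adjusted p = 1.12e-07, edgeR), and Lif was higher by 1.96 ± 0.58 (adjusted p = 0.0230). Cxcl2 passed the same test (2.61 ± 0.30, adjusted p = 3.44e-15), but 65 of its 68 UMIs in cells with Il1a came from tumour 3 and 36 of them from 1 cell. Without tumour 3 its difference was -0.77. The feedback inhibitors Nfkbia and Tnfaip3 were higher by 0.64 ± 0.16 and 1.53 ± 0.42 (adjusted p = 0.00257 and 0.0108, edgeR), Tnfaip3 by 0.53 without tumour 3, where it did not pass, and its call was also lost under DESeq2 (0.168) and at 2000 UMIs (0.156). Capn2, a calpain subunit, was higher by 0.87 ± 0.24 (adjusted p = 0.00834); calpain is known to cut the interleukin-1 alpha precursor. Lcn2 was lower, at 287, 113 and 484 CPM against 969, 482 and 2952 CPM (-2.29 ± 0.15, adjusted p = 2.22e-46, edgeR), and Sod2 was lower by a difference of -0.95 ± 0.26 (adjusted p = 0.00872). Icam1 had 2 UMIs in cells with Il1a, a ratio of 0.156 with a counting interval of 0.0189 to 0.568 (adjusted p = 0.0208). Leaving out tumour 1 ended the calls of Lif (0.541), Nfkbia (0.0561), Capn2 (0.187), Icam1 (0.352) and Sod2 (0.293).

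Over all genes, the 12 higher in cells with Il1a with the largest differences were Gm7628, Csf2, Olr1, Ankrd1, Adm, Il23a, Inhba, Med26, Ivl, Uts2, Tbc1d9 and Apobr, from 1.96 to 3.50 on the log2 scale. Gm7628 rests on 5 UMIs in cells with Il1a. Ankrd1, a target of the YAP pathway, was 446, 180 and 52.1 CPM against 60.7, 69.4 and 4.26 CPM (2.37 ± 0.21, adjusted p = 1.16e-26, edgeR). Ivl, the cornified-envelope protein involucrin of squamous cells, was 97.4, 127 and 26.0 CPM against 20.6, 32.8 and 4.73 CPM (2.08 ± 0.33, adjusted p = 6.35e-08), a call lost at 2000 UMIs (0.274). Both were lowest in tumour 3 and higher with Il1a in 3 of 3 tumours. Lower in cells with Il1a were the gastric-type secretory genes Muc6 and Pgc, with Zg16, Gp2, Cldn10, Habp2, Vegfb, Ptger4, Pus7 and 2310057J18Rik. All of these but Muc6 and Zg16 had 0 UMIs in cells with Il1a, which with a floor of 3 counts over the group gives pooled levels at least 1.89-fold (Ptger4) to 6.72-fold (Pgc) lower. Muc6 was 10.3, 0 and 0 CPM against 165, 47.7 and 70.6 CPM, and from its 2 UMIs the ratio was 0.0397 with a counting interval of 0.00480 to 0.144.

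Of the other members 5 passed the filter on low counts in this comparison. Il33 was lower in cells with Il1a, with 1 UMI against 290, a ratio of 0.117 with a counting interval of 0.00296 to 0.659 (adjusted p = 0.0329, edgeR), but the call was lost when tumour 2 (0.0935) or tumour 3 (0.0803) was left out or cells were thinned to 2000 UMIs (0.529). Il1rn was 71.8, 86.7 and 5.21 CPM in cells with Il1a and 36.2, 31.7 and 10.4 CPM in cells without, which did not pass (0.93 ± 0.35, adjusted p = 0.128, edgeR). Without the tumour as a block, 1 of the 10054 genes passed, so all the named calls rest on comparing cells within each tumour.

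Epithelial cells with an Il18 UMI, 251, 187 and 226 in tumours 1, 2 and 3, differed from those without in 527 of 9973 genes (5.28%), 311 higher and 216 lower. The 12 higher genes with the largest differences were Lypd8, Muc3, Fabp1, Myo1a, Cyp2c65, Fam3b, Hsd17b2, Cwh43, Sult1b1, Cym, Gal3st2 and Atp6v0d2, from 1.83 to 2.85 on the log2 scale; several are known from intestinal epithelium. Muc3, a membrane mucin, was 66.4, 105 and 87.0 CPM with Il18 against 11.3, 31.4 and 11.9 CPM without (2.41 ± 0.19, adjusted p = 9.54e-10, edgeR), and the groups did not overlap. Of 7 tested genes that process the ligands 2 were higher and 1, Capn2, was lower (-0.57 ± 0.17, adjusted p = 0.0467, edgeR). The inflammasome adaptor Pycard was 135, 62.4 and 88.5 CPM against 68.8, 44.3 and 52.5 CPM (0.86 ± 0.14, adjusted p = 0.000157), and Gsdmd was higher by 0.72 ± 0.16 (adjusted p = 0.00653). The Gsdmd and Capn2 calls were lost at 2000 UMIs (0.0783 and 0.557).

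Of 15 tested response genes 5 were lower and 0 higher in cells with Il18: Cxcl1, Csf2, Lcn2, Vcam1 and Ptgs2. Of these, Cxcl1 and Csf2 were higher in cells with Il1a and Lcn2 was lower there too. Inhba and Ankrd1, also lower with Il18, were higher with Il1a. Cxcl1 was 9.30, 10.7 and 10.3 CPM with Il18 against 32.8, 16.2 and 38.3 CPM without (-1.49 ± 0.29, adjusted p = 0.00117, edgeR). At 2000 UMIs the calls of Cxcl1 (0.0650), Csf2 (0.363), Lcn2 (0.774), Vcam1 (0.622) and Inhba (0.143) were lost, and that of Ptgs2 without tumour 1 (0.182). The 12 with the largest differences were Try5, Ctrb1, Nebl, 2210010C04Rik, Inhba, Clps, Cela3b, Ghrl, Rnase1, Ankrd1, Trbc1 and Ptgs2, from -4.49 to -2.39. Several encode digestive enzymes of acinar cells: Ctrb1 was 117, 19.6 and 56.0 CPM with Il18 and 2055, 28.1 and 1824 CPM without. These acinar transcripts were lower in 3 of 3 tumours in cells with Il18, whichever cells they came from, and their part in the other differences was not tested. Median depths before thinning were 9886, 7902 and 7489.5 UMIs with Il18 and 10726, 9137 and 7917 UMIs without. Of the other members 6 were tested and 0 passed by edgeR; 0 had an unadjusted p under 0.05 and DESeq2 called 0. Il18r1 was 0.04 lower on the log2 scale with an SE of 0.26 (adjusted p = 0.970, edgeR), and 16, 8 and 10 epithelial cells had both transcripts.

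Among fibroblast-class cells, 515, 173 and 429 had an Il1r1 UMI and were compared with the rest in the same way. Of 10629 genes 91 differed (0.856%), 24 higher and 67 lower. The 12 higher genes with the largest differences were Cxcl13, Cxcl5, Ptx3, Mmp9, Chl1, Nfasc, Sned1, Ifitm1, Sfrp2, Adamts15, Igf1 and Serpina3n, from 0.88 to 1.63. Cxcl13, a B-cell chemokine, was 631, 38.5 and 556 CPM in cells with Il1r1 and 210, 3.11 and 239 CPM in cells without (1.63 ± 0.22, adjusted p = 0.00258, edgeR); it was lowest in tumour 2 in both groups. Cxcl5 and Cxcl1, both on the list of response genes, were higher by 1.47 ± 0.20 and 0.80 ± 0.13 (adjusted p = 0.00275 and 0.00780, edgeR), and 2 of 17 tested response genes passed. Cxcl5 was 51.8, 53.9 and 31.1 CPM with Il1r1 and 19.8, 12.8 and 14.8 CPM without. Thinned to 2000 UMIs, 24 genes passed, and Cxcl5, Cxcl1 and Cxcl13 were not among them, at 0.30, 0.44 and 1.04. The Cxcl1 call was also lost without tumour 1 (0.124) or tumour 3 (0.0731), and the Cxcl13 call under DESeq2 (0.149). Mmp9 turned from 1.29 to -1.65 at 2000 UMIs.

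Lower in cells with Il1r1 were Cfd, Car3, Rnase1, Hhex, Pyy, Fermt1, Reg2, Pnliprp1, Mcpt1, Try5, Ctrb1 and Cela3b, from -5.09 to -2.75. Among them were an adipocyte gene (Cfd), a mast-cell protease (Mcpt1) and several acinar or endocrine products. Ctrb1 was 106, 11.6 and 48.2 CPM with Il1r1 and 783, 53.2 and 395 CPM without. The cells these transcripts came from, and their part in the other differences, were not tested. Of the other members 4 were tested and 0 passed by edgeR; Il33 and Il1r2 had an unadjusted p under 0.05, and DESeq2 called 0. Il1r2 was 40.1, 15.4 and 16.3 CPM with Il1r1 and 16.5, 3.11 and 10.8 CPM without, higher in 3 of 3 tumours, and did not pass (1.20 ± 0.27, adjusted p = 0.0652, edgeR).

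Fibroblast-class cells with an Il33 UMI numbered 483, 241 and 134 and differed in 123 of 10545 genes (1.17%), 73 higher and 50 lower. The higher genes with the largest differences were Lmo2, Car12, Spon2, Wisp2, Clec3b, Ly6c1, Dpt, Gdpd2, Lrg1, Cd55, Nov and Vit, from 1.43 to 2.33. Clec3b and Dpt, secreted proteins of adventitial fibroblasts, were higher in 3 of 3 tumours: Dpt was 634, 98.2 and 157 CPM with Il33 and 168, 22.2 and 97.7 CPM without (1.63 ± 0.24, adjusted p = 0.00539, edgeR). Of 17 tested response genes 4 were higher and 0 lower: Il6 (1.04 ± 0.18, adjusted p = 0.0154), Cxcl1 (1.06 ± 0.15, 0.00387), Ccl7 (1.10 ± 0.14, 0.00327) and Vcam1 (1.19 ± 0.17, 0.00539). Il6 was 159, 62.2 and 316 CPM with Il33 and 113, 24.5 and 125 CPM without, and its call was lost without tumour 2 (0.0774) or tumour 3 (0.0946).

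The lower genes with the largest differences were Col10a1, Wif1, Tbx2, Cfd, Edil3, Igf2, Tac2, Mmp9, Cadm1, H19, Rgs7bp and Col7a1, from -5.27 to -2.16. Wif1, a secreted Wnt inhibitor, was 2.76, 0 and 27.4 CPM with Il33 and 77.0, 24.3 and 302 CPM without (-4.06 ± 0.31, adjusted p = 0.000175, edgeR). Of the other members 4 were tested and 0 passed by edgeR; 1 had an unadjusted p under 0.05, Il1r1, and DESeq2 called 0. Il1r1 was 190, 83.0 and 92.0 CPM with Il33 and 109, 31.1 and 103 CPM without, higher in 2 of 3 tumours (0.74 ± 0.23, adjusted p = 0.223, edgeR). In these fibroblast comparisons, as in the Il18 comparison, 0 genes passed without the tumour as a block.

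The deposited cluster statistics, made by the authors over 19 clusters that carry no names, gave a second view of the same cells. In the authors' deposited table Il1a had its highest log2 fold change in cluster 3 (3.18, adjusted p = 4.16e-24). In the authors' deposited table Il18r1 was highest in cluster 9 (2.22, adjusted p = 2.94e-06), the cluster in which the mesothelial markers Upk3b and Lrrn4 reached 8.40 and 8.39. Il33 and Il1r1 were both highest in cluster 11 of the authors' deposited table (3.21 and 2.80), where Dcn was 3.36. Il1rap and Il1rl1 were highest in clusters 6 and 10 of the authors' deposited table, at 1.86 and 1.78 for Il1rap and 2.07 and 2.62 for Il1rl1. Il18 was higher in cluster 8 than in cluster 9 of the authors' deposited table (2.02 and 1.76). Il1r2 was highest in cluster 11 of the authors' deposited table (3.02), above clusters 12 and 15 (2.26 and 1.87), where the mural marker Rgs5 was 5.60 and 5.44. Il1rn reached 2.08 in cluster 17 (adjusted p = 0.123), 1.99 in cluster 8 and 1.43 in cluster 3 of the authors' deposited table. Il1b reached 2.90 in cluster 16 of the authors' deposited table, where its adjusted p was 1.

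The genes whose profile was most like each member, by Pearson correlation of log2(CPM + 1) over the 11 class sums of the rule, were read from the same libraries and carry no p. The sums share tumours and differ in depth. For Il1a the first was Gzme (0.990), for Il1rn Sema3e (0.975), for Il18 Ephb2 (0.981) and for Il18r1 Pcyt2 (0.961). For Il33 it was Grem1 (0.927), for Il1r1 Fkbp9 (0.970), for Il1r2 Cyp7b1 (0.976) and for Il1rap Anapc11 (0.941). For Il1b the first was Tyrobp (0.974), a leukocyte gene, and for Il1rl1, on few UMIs, Cd80 (0.996).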

How the data were processed

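Cells of 3 KPf/fC tumours were sorted to lack CD45, CD31 and PDGFRa and run on the 10x 3' v2 platform (labels' protocols). The authors deposited 1 matrix of raw UMI counts, in which the barcode suffix names the tumour, made with Cell Ranger 2.1.1 and Seurat 3.0 named per the submitters' processing notes; no genome build is named in those notes. The authors' deposited cluster table gives, for each gene in each of 19 clusters, the mean UMI count, its log2 fold change and a p-value after adjustment; the test behind it is not stated there.

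Of 19576 barcodes, those with under 500 genes, over 20% mitochondrial counts or a high Scrublet score (74, 94 and 144 doublets in tumours 1, 2 and 3) were left out. Tumours shared 50 to 65 barcode sequences pairwise. Counts were summed per tumour and class, sums of under 20 cells were left out, and CPM are counts per 1000000 UMIs of the sum. Tests used edgeR 4.0.16 (limma 3.58.1, R 4.3.3; quasi-likelihood, TMM, filterByExpr) over all classes, with the tumour as a block because sums of the same number come from the same tumour, and Benjamini-Hochberg adjustment over all genes at 0.05. DESeq2 1.42.0 was an alternative. Mesothelial comparisons under the strict rule, with 6, 0 and 5 cells, were not run. In comparisons by detection, the gene that splits the cells is not counted as a member. Levels are not compared between genes. Counting intervals are exact at 95% and cover counting error only, and the limit of a count of 0 is 3 counts. The tests were tried on simulated counts before use.

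The genes and lists were chosen with earlier results of these data known. Within a class, the genes named are the 12 with the largest log2 difference in each direction among those past the threshold with the same sign in every tumour, plus genes of the pathway list past it; some items are not reported here. For likeness, the 3 highest correlations were kept and the first is given. Promoters came from RefSeq, build GRCm38.p6.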

Additional observations from a re-analysis of the deposited data

How the results depend on the processing

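Of 42 calls of the 10 genes between classes, 6 were lost without the replicate block, 2 under DESeq2, 1 under RLE scaling, 1 without cells carrying leukocyte transcripts, 2 of 39 after thinning to 3000 UMIs, and 0 with markers at 2 UMIs or without barcode filters. Alternatives chosen after seeing the data left out fibroblast-class cells with Hmga2 (2 of 27 calls lost) or with mesothelial transcripts (1 of 25). Calls of pathway genes between classes were lost more often. Of 209 such calls, 80 were lost without the replicate block and 8 under DESeq2. Thinning to 3000 UMIs lost 32 of 197, and leaving out fibroblast-class cells with mesothelial transcripts lost 21 of 117. The number of the 10 genes called moved from 2 to 0 without the replicate block and to 4 with only both classes in the fit for fibroblast against endothelial sums. For mural against endothelial sums it moved from 0 to 1 under DESeq2, without a filter on low counts, and with only both classes. Under precedence it moved from 2 to 4 without a filter for fibroblast against mesothelial sums. It moved from 3 to 5 without a filter, with only both classes, or with markers at 2 UMIs for mural against mesothelial sums. In the Il1a comparison it moved from 1 to 0 under DESeq2, without the replicate block and at 2000 UMIs. Without a filter it moved from 0 to 2 for Il1r1 and to 1 for Il33.

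Leaving out each tumour gave 7 to 9 called genes for epithelial against fibroblast, 7 to 7 against mural and 1 to 6 against endothelial sums. It gave 2 to 3 for fibroblast against mural, 0 to 3 for fibroblast against endothelial, and 0 to 0 for mural against endothelial. Under precedence the ranges were 6 to 8 for epithelial, 2 to 3 for fibroblast, 3 to 4 for mural and 2 to 3 for endothelial against mesothelial. They were 0 to 0 in the Il1a and Il18, 0 to 2 in the Il1r1 and 0 to 1 in the Il33 comparison. Directions turned for Ccl2 between epithelial and endothelial sums (0.45 with markers at 2 UMIs, and from -2.95 to 8.22 leaving out each tumour), Il33 in the same pair (-0.19 to 2.78), Vcam1 between mural and endothelial sums (-3.31 to 8.63), Cxcl2 with Il1a (-0.77 to 3.34) and Mmp9 with Il1r1 (-1.65 at 2000 UMIs). The cause was not tested.

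Over all genes, calls between epithelial and fibroblast sums fell from 5901 to 3701 without the replicate block, and within a class from 430, 527, 91 and 123 to 1, 0, 0 and 0, where 119 of 119 calls of named genes were lost. DESeq2 called 154, 178 and 41 genes in the Il1a, Il18 and Il1r1 comparisons, and thinning to 2000 UMIs left 268, 277 and 24. Of the calls of named genes within a class, 23 of 85 were lost under DESeq2. Thinning to 2000 UMIs lost 51 of 102, and 1 more turned in direction. Leaving out each tumour lost 90 of 347, and 1 more turned. Depth limits Il1b, Il1rl1 and the endothelial and mural levels, which rest on few UMIs.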
